A study of Mus musculus with 12 samples.

Results

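Collagens, small leucine-rich proteoglycans and a small set of matrix glycoproteins build much of the extracellular matrix, and their transcripts were followed here in cultured oligodendrocyte precursor cells (OPCs). The members were the protein-coding genes whose Ensembl 96 symbol reads Col, a number, a and a number, plus Lum, Dcn, Bgn, Fmod, Omd, Ogn, Prelp, Fn1, Tnc, Tnr and Ccn2. This rule found 55 of 22028 protein-coding genes, among 55536 genes in all, and 44 of the 55 carried a collagen symbol. By role they were 11 fibrillar collagens, 6 basement membrane collagens, 9 fibril-associated collagens, 6 collagen VI chains, 4 network and anchoring collagens, 2 multiplexins, 4 transmembrane collagens, 2 other collagens, 7 small leucine-rich proteoglycans and 4 matrix glycoproteins.

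OPCs came from the pooled brains of pups aged postnatal day 4 to 6 and were grown in a proliferation medium with PDGFaa and bFGF. Ctr cultures had no added treatment, Dexa cultures received 1 uM of the glucocorticoid dexamethasone and IFNg cultures received 100 ng/ml of interferon gamma, the last 2 for 48 hours. Each group had 4 replicates, from different litters, and libraries with the same replicate number, which deviated together, are spoken of as 1 litter. The labels call all cells Sox10GFP+ OPCs, and the study's mouse line carries Sox10:Cre and the RCE:loxP(EGFP) reporter, in which Cre made under Sox10 control switches on EGFP throughout the lineage, but the protocol gives either sorting for that reporter or magnetic selection for CD140a, and which library had which was not given. The labels also tag every sample with EAE, a mouse model of autoimmune demyelination, although the cells were taken from pups of this age and the protocol names no such induction. The 11 complete libraries held 19209063 to 52074652 estimated reads in genes. The table of Dexa replicate 3 stopped after 47855 of 141862 transcripts, listed 26 of the 55 members whole, and was left out of the fit; its values are given for those members and were scaled from the genes it lists whole.

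Collagens are trimers of chains in which glycine recurs in steps of 3 residues, and they assemble outside the cell into fibrils, sheets or filaments. Fibrillar collagens V and XI start and size fibrils, fibril-associated collagens sit on fibril surfaces, and collagen IV forms the sheet of basement membranes. Small leucine-rich proteoglycans bind collagen fibrils and growth factors. In the brain, tenascin-R (Tnr) is a product of the oligodendrocyte lineage found in perineuronal nets and at nodes of Ranvier, tenascin-C (Tnc) marks immature glia, and fibrous collagens are largely restricted to vessels and meninges.

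The uninterrupted glycine repeat was longest in the fibrillar collagens, while the other roles overlapped. In the coding transcript with the most reads among each gene's coding transcripts (17.8% of the gene's reads for Col24a1, 31.2% for Col14a1 and at least 60.2% for the other chains named in this paragraph), the longest uninterrupted run of glycine codons in steps of 3 codons was 337 triplets in Col5a3, 338 in Col11a1 and 344 in Col3a1, but 216 in Col24a1 and 217 in Col27a1, which are the shorter-helix members of the fibrillar role. It was 113 triplets in each of Col9a1, Col9a2 and Col9a3, whose 3 chains form 1 heterotrimer, 57 in Col16a1 and 40 in Col4a1, a chain with many interruptions. Over all chains, fibril-associated collagens ran from 4 triplets in Col14a1 to 113, basement membrane collagens from 39 to 66, collagen VI from 37 to 87 and network and anchoring collagens from 60 to 75. The Col14a1 value is that of a transcript of 520 codons, and other transcripts of this gene were not examined. The first 10 triplets of that run are shown for a fibrillar, a fibril-associated and a basement membrane chain that the results below turn on. The Col16a1 transcript does not begin with a start codon, so its annotated coding sequence is partial. Capitals mark the glycine codons, each stretch crosses 1 intron, and the sequences are GENCODE M21 transcripts on GRCm38 (Col5a3 chr9:20801077-20801260, minus strand, Col16a1 chr4:130079646-130080593, plus strand, and Col4a1 chr8:11247024-11267614, minus strand).
Col5a3: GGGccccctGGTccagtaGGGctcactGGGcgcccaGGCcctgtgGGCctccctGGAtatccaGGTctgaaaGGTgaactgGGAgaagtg
Col16a1: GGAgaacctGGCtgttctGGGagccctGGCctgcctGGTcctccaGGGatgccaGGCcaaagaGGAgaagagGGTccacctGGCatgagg
Col4a1: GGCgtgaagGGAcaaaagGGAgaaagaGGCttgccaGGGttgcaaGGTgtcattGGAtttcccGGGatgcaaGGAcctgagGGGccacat

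Levels between genes were set side by side as FPKM, the reads per kilobase of transcript scaled to library sizes from trimmed means (TMM). The highest Ctr levels were those of the tenascins and of chains of collagens XI, IX and XVI. Tnr stood highest at 108 ± 62.2 FPKM (SD, n = 4), followed by Tnc at 59.4 ± 16.0 and the fibrillar Col11a1 at 52.5 ± 34.4. Next came Col9a1 at 31.3 ± 23.4, Col16a1 at 18.5 ± 5.47 and Col9a3 at 13.9 ± 2.76 FPKM. The Ctr ranges of Tnr, Tnc, Col11a1 and Col9a1 overlapped from each to the next, so the ranges alone did not separate their order. Col5a2 at 4.72 ± 4.13, Col4a1 at 3.99 ± 1.37, Col5a3 at 2.66 ± 1.45 and Col9a2 at 2.61 ± 1.10 FPKM completed the 10 highest and likewise overlapped in range. Type I and III collagen, the main collagens of fibroblasts, had lower means, with 0.0835 ± 0.0885 FPKM for Col1a1, 0.358 ± 0.328 for Col1a2 and 1.08 ± 1.26 for Col3a1. The Ctr ranges of Col1a1 and Col1a2 lay below those of the 10 highest. That of Col3a1, 0.0512 to 2.76 FPKM, overlapped those of Col5a2, Col4a1, Col5a3 and Col9a2. All small leucine-rich proteoglycans had Ctr means under 1 FPKM, the highest being Bgn at 0.448 ± 0.408. The 3 chain genes of collagen IX stood at unequal levels, with Col9a1 and Col9a3 above Col9a2 in every Ctr library.

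**Figure D1:**
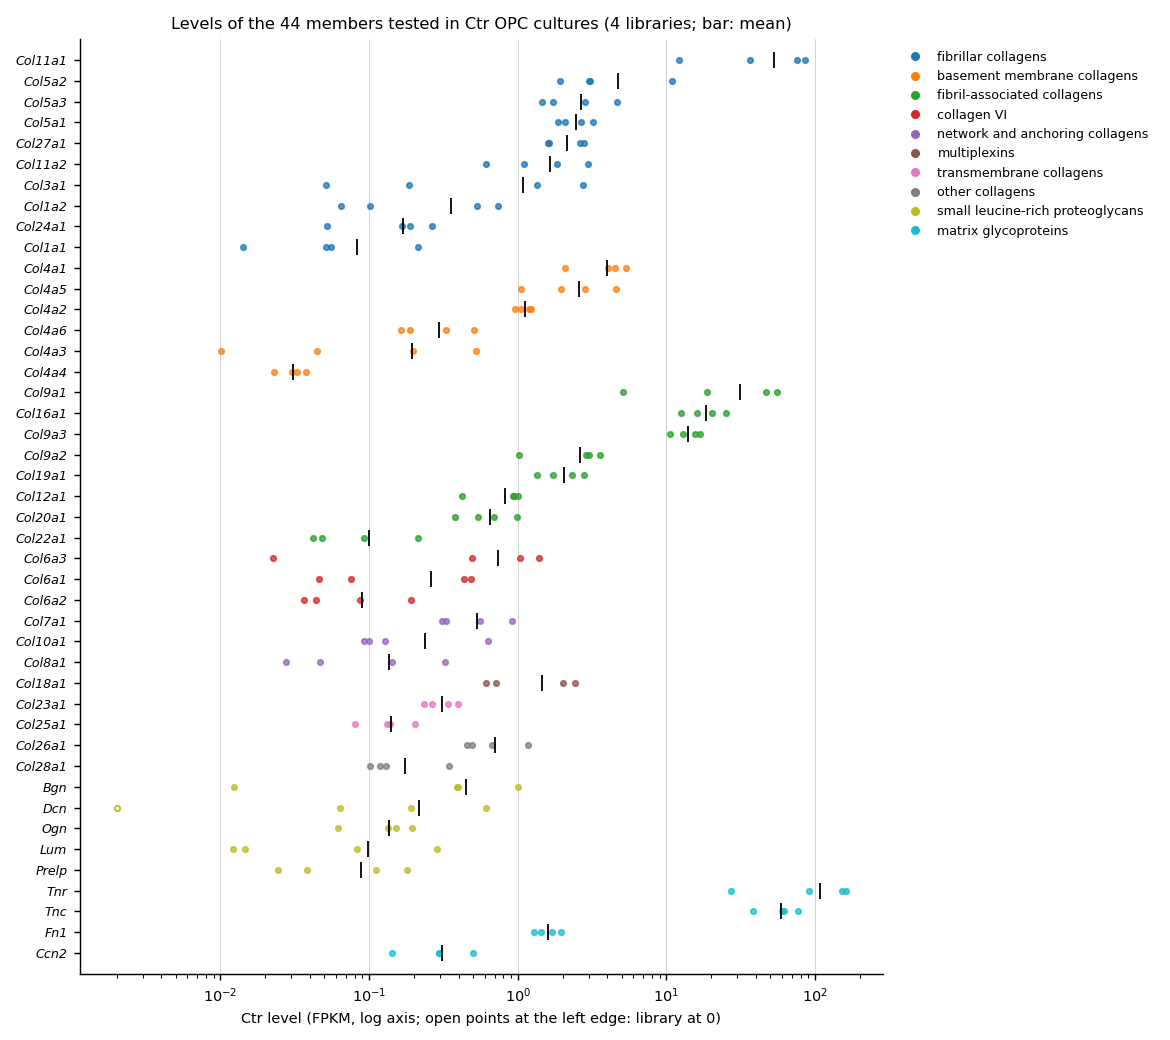
Ctr levels of the 44 members tested, in FPKM on a log axis, grouped and coloured by role, with a point for each of the 4 libraries and a bar for their mean (an open point at the left edge marks a library at 0). Tnr, Tnc, Col11a1, Col9a1, Col16a1 and Col9a3 have means above 10 FPKM, while the small leucine-rich proteoglycans, collagen VI and Col1a1 stay under 1 FPKM on average.

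Of the 55 members, 44 had at least 10 counts in at least 4 of the 11 libraries and were tested. The other 11 were Col2a1, Col6a4, Col6a5, Col6a6, Col8a2, Col13a1, Col14a1, Col15a1, Col17a1, Fmod and Omd, none with more than 35 reads in any library. Lum, whose Ctr libraries held 1, 10, 31 and 1 reads, passed this minimum mainly through the IFNg libraries.

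Markers of OPCs were abundant in every library and markers of fibroblasts were near 0. The 8 OPC markers summed to between 1488 and 3069 FPKM in Ctr, 1600.1 and 3408 in Dexa and 1023 and 2288 in IFNg, and 5 of the 8 (Pdgfra, Cspg4, Sox10, Gpr17 and Lhfpl3) were called lower in IFNg. Cspg4 was called higher in Dexa (0.65 ± 0.09 on the log2 scale, edgeR adjusted p = 0.00468). All 12 markers of vascular leptomeningeal cells and fibroblasts stayed under 1 FPKM in every complete library and summed to at most 1.03 FPKM, with Slc22a6 and Foxc2 at no more than 2 reads, and the sums of the 3 groups overlapped. Of 11 pericyte and smooth muscle markers 8 stayed under 1 FPKM, including the defining Pdgfrb, Kcnj8 and Abcc9, and the list summed to 3.81 to 10.4 FPKM in Ctr, 8.57 to 13.5 in Dexa and 9.40 to 15.8 in IFNg. In IFNg Acta2 and Myh11 of that list were called higher and Vtn lower, and in Dexa Tagln was called higher. The part of such cells in the changes below was not tested. Endothelial markers summed to at most 4.02 FPKM, most of it Ly6c1 in IFNg, with Cldn5 at no more than 2 reads, and microglial markers to at most 1.40. Astrocyte markers summed to between 231 and 558 FPKM in Ctr, 498 and 759 in Dexa and 442 and 610 in IFNg. The highest of them in Ctr were Aldoc at 95.1 to 254 FPKM and Slc1a3 at 67.5 to 205, while Gfap was at 0.0509 to 0.494. In IFNg 3 of the 8 were called higher, Gfap by 3.99 ± 0.36 (edgeR adjusted p = 1.86e-05), and 3 lower. Mature oligodendrocyte markers summed to between 72.6 and 389 FPKM. Cnp was the highest of these in Ctr, at 86.5 to 302 FPKM, and Mog was at 0.0882 to 0.181. Of the astrocyte list Aldoc was called higher in Dexa, and of the mature oligodendrocyte list Cnp was called lower in IFNg. In bulk samples, fewer cells of a type and less RNA per cell cannot be told apart.

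The first comparison asks how interferon gamma changed matrix transcripts in OPCs. Of the 44 members tested, 24 were called between IFNg and Ctr at an adjusted p under 0.05 (edgeR's quasi-likelihood test with the replicate number as a block, Benjamini-Hochberg over all 17919 genes tested), which was 54.5%, against 31.3% of all genes tested. Here 5 members rose (16.0% of all genes tested rose) and 19 fell (15.3% of all genes tested fell), and the median log2 fold change was -0.54 over the members and -0.01 over all genes tested. The members were chosen with earlier results of these data known, so these shares are a description and no test of the set. The lowered members covered both fibrillar and fibril-associated collagens, the Col4a1 and Col4a2 chains, Tnr, Fn1 and a pair of proteoglycans. Without the replicate block, which removes differences between litters, edgeR called 7 of the 44 members, namely Lum, Col16a1, Col22a1, Col4a1, Col9a3, Col27a1 and Col26a1, with adjusted p from 0.00056 to 0.0335. These 7 were the called members that stayed called under every alternative computed for them, and none of the 24 changed direction under any.

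Lum, which encodes the collagen-binding proteoglycan lumican, had the largest rise of any member. Its values, in counts scaled to TMM library size (CPM, with no length correction) and in the order of replicates 1 to 4, were 0.0272, 0.186, 0.641 and 0.0326 in Ctr and 0.574, 3.50, 4.98 and 4.07 in IFNg. Each IFNg library was above the Ctr library of its own litter, although IFNg replicate 1, with 19 reads, lay below Ctr replicate 3. The difference was 3.93 ± 0.39 on the log2 scale (estimate ± SE, edgeR adjusted p = 3.62e-05), a 15.2-fold rise. Its neighbour Dcn, which encodes decorin and lies upstream of Lum on the same strand of chromosome 10 with 46984 bases between the genes (Dcn chr10:97479609-97518143, plus strand, Lum chr10:97565128-97572703, plus strand), fell instead. Dcn was at 0, 0.297, 0.952 and 0.0978 CPM in Ctr and 0, 0.0839, 0.418 and 0.0384 in IFNg, with 0 reads in all replicate 1 libraries and no more than 46 in any. Its log2 difference was -1.35 ± 0.38 (edgeR adjusted p = 0.0284), and without replicate 4 the adjusted p was 0.0839, while without replicate 2 or 3 it missed the count minimum. Prelp, another member of the family, was at 0.380, 0.613, 0.0827 and 0.130 CPM in Ctr and 0.242, 0.252, 0.0348 and 0.0384 in IFNg, from no more than 33 reads in any library. It was also called lower (-1.07 ± 0.37, edgeR adjusted p = 0.0496), and the call was lost without replicate 3 (adjusted p = 0.0829) or 4 (0.0849) and without replicate 1 or 2 it was not tested. Bgn and Ogn were tested and not called, with ranges of 0.0123 to 0.998 FPKM in Ctr and 0.0123 to 1.05 in IFNg for Bgn.

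Among the 8 fibril-associated collagens tested, 2 rose and 4 fell. Col16a1, a fibril-associated collagen of many tissues and the fifth most abundant member in Ctr, was at 31.8, 49.1, 40.5 and 35.9 CPM in Ctr and 65.6, 113, 146 and 121 in IFNg. The groups did not overlap, and the log2 difference was 1.46 ± 0.12 (edgeR adjusted p = 8.13e-06), a 2.76-fold rise. Col22a1, known from tissue junctions such as that of muscle and tendon, rose from 1.17, 0.799, 0.414 and 0.359 to 4.50, 2.74, 1.81 and 1.65 CPM. Again no IFNg library reached down into the Ctr range, and the log2 difference was 1.98 ± 0.17 (edgeR adjusted p = 1.09e-05).

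All 3 chains of collagen IX, a cartilage collagen that decorates type II and XI fibrils, fell with interferon gamma. Col9a3 was at 33.9, 33.9, 25.9 and 32.0 CPM in Ctr and 13.9, 14.8, 12.9 and 8.32 in IFNg, with no overlap and a log2 difference of -1.32 ± 0.15 (edgeR adjusted p = 1.11e-04). Col9a2 was at 2.44, 7.43, 7.43 and 8.15 in Ctr and 0.453, 1.85, 3.06 and 2.88 in IFNg and differed by -1.71 ± 0.18 (adjusted p = 4.61e-05). For Col9a1 the litters spread far more widely than the treatment moved it, with 18.0, 65.6, 193 and 162 CPM in Ctr and 8.88, 39.1, 164 and 84.5 in IFNg. Within each litter IFNg was the lower, and the log2 difference was -0.72 ± 0.13 (edgeR adjusted p = 0.00157 with the block and 0.806 without). Col19a1, the next gene to Col9a1 on chromosome 1, differed by -0.58 ± 0.12 (edgeR adjusted p = 0.00380, and 0.0612 without replicate 2) from 6.65, 11.4, 8.65 and 5.12 to 4.47, 6.27, 5.68 and 4.53 CPM. Col12a1 and Col20a1 were not called.

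Of the 10 fibrillar collagens tested, 6 fell and 4 were not called. The largest of these was Col11a2, whose product joins that of Col11a1 in type XI collagen, at 1.82, 5.48, 6.27 and 13.3 CPM in Ctr and 0.937, 2.13, 2.12 and 2.80 in IFNg. It differed by -1.58 ± 0.24 (edgeR adjusted p = 5.70e-04), and within every litter IFNg was lower. Its partner Col11a1 was not called, at 85.7, 256, 519 and 588 CPM in Ctr and 112, 303, 531 and 529 in IFNg. Col27a1, a cartilage collagen with a short helix, fell from 7.50, 8.77, 14.8 and 14.6 to 3.81, 3.92, 3.73 and 4.03 CPM, with no overlap and a log2 difference of -1.49 ± 0.17 (edgeR adjusted p = 9.26e-05).

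The 3 chains of collagen V, which regulates fibril diameter, all fell, but by unequal amounts. Col5a3 went from 26.7, 16.2, 8.48 and 9.94 CPM in Ctr to 7.77, 5.12, 3.94 and 4.26 in IFNg and differed by -1.48 ± 0.13 (edgeR adjusted p = 1.87e-05). Col5a2 was at 67.1, 18.2, 12.3 and 19.4 in Ctr and 54.8, 11.4, 6.90 and 10.9 in IFNg, where the high value of replicate 1 stayed above all other litters under both conditions, and differed by -0.63 ± 0.10 (adjusted p = 7.46e-04). Col5a1 differed least, by -0.34 ± 0.10 (edgeR adjusted p = 0.0202), and its call was lost without replicate 2, 3 or 4 (adjusted p = 0.146, 0.0653 and 0.0660). Its values were 21.8, 26.2, 14.9 and 17.1 CPM in Ctr and 22.2, 17.5, 10.8 and 13.5 in IFNg, and in replicate 1 IFNg was the higher. Col3a1, the fibril collagen of blood vessels and loose connective tissue, was at 0.109, 4.09, 7.34 and 0.619 CPM in Ctr and 0.0604, 2.04, 2.26 and 0.192 in IFNg and differed by -1.36 ± 0.25 (edgeR adjusted p = 0.00202 with the block and 0.622 without). Col1a1, Col1a2 and Col24a1 were not called.

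The collagen IV chains called went in opposite directions, pair by pair. Col4a1 and Col4a2, which form the common basement membrane trimer, fell. Col4a1 was at 22.9, 17.1, 20.0 and 12.6 CPM in Ctr and 10.5, 7.05, 9.37 and 6.10 in IFNg, with no overlap and a log2 difference of -1.14 ± 0.08 (edgeR adjusted p = 3.19e-06). Col4a2 was at 5.27, 6.02, 7.47 and 3.33 in Ctr and 2.33, 3.05, 4.49 and 1.76 in IFNg and differed by -0.94 ± 0.12 (adjusted p = 2.21e-04). Col4a5 and Col4a6, a pair on the X chromosome that forms a trimer of smooth muscle and epithelial basement membranes, were called higher by small amounts. Col4a5 was at 25.7, 16.1, 5.81 and 11.1 CPM in Ctr and 32.0, 15.9, 7.84 and 14.3 in IFNg, was lower in IFNg in replicate 2, and differed by 0.27 ± 0.08 (edgeR adjusted p = 0.0359). Col4a6 was at 3.29, 2.02, 1.05 and 1.21 in Ctr and 4.59, 2.77, 1.497 and 1.76 in IFNg and differed by 0.49 ± 0.15 (adjusted p = 0.0288). Neither call was firm: the adjusted p of Col4a6 was between 0.0664 and 0.0908 without any 1 replicate, and that of Col4a5 was 0.120, 0.118 and 0.149 without replicates 1, 3 and 4. Col4a3 and Col4a4 were not called.

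These 6 genes lie as 3 head-to-head pairs whose starts face each other, a feature the choice of members did not use. In the annotation Col4a1 (chr8:11198423-11312826, minus strand) and Col4a2 (chr8:11312805-11449287, plus strand) overlap by 22 bases at their starts, 71 bases lie between Col4a4 and Col4a3 on chromosome 1, and 1308 bases lie between Col4a6 and Col4a5 on chromosome X. In each pair both genes had the same call in IFNg: lower for Col4a1 and Col4a2, not called for Col4a4 and Col4a3, and higher, though not firmly, for Col4a6 and Col4a5. This was not particular to head-to-head pairs. The neighbours Col9a1 and Col19a1, and Col3a1 and Col5a2, were also both lower, and Col6a2 and Col6a1 both not called. Dcn and Lum went opposite ways. As 19 of all 44 members tested fell, like calls in a pair are readily met. The windows from 250 bases before to 50 bases after the RefSeq starts of Col4a1 and Col4a2 are shown because this is the pair that also moved together in Dexa. They cover GRCm38.p6 chr8:11312777-11313076 on the minus strand and chr8:11312555-11312854 on the plus strand, and capitals mark the 78 bases that they share, read from opposite strands.
Col4a1: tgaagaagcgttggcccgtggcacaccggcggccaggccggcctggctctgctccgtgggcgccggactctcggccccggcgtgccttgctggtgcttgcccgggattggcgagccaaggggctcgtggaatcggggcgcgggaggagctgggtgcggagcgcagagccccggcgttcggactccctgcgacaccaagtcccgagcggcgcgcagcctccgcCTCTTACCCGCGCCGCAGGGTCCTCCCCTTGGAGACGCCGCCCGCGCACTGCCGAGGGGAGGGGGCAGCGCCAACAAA
Col4a2: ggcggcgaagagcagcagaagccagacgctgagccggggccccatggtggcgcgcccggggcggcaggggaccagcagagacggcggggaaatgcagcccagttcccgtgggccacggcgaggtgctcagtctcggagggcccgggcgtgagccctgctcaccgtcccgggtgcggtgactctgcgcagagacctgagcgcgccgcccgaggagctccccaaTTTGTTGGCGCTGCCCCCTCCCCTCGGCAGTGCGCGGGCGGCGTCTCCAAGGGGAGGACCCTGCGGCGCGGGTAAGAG

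Of the matrix glycoproteins, Tnr and Fn1 fell with interferon gamma. Tnr was at 161, 530.3, 1097 and 1072 CPM in Ctr and 66.6, 208, 431 and 429.6 in IFNg, and every litter lost a similar share although the litters themselves lay far apart in Ctr. The log2 difference was -1.32 ± 0.07 (edgeR adjusted p = 3.25e-07 with the block and 0.336 without), 2.50-fold lower. Fn1, which encodes the adhesive glycoprotein fibronectin, differed by -0.47 ± 0.10 (edgeR adjusted p = 0.00592), going from 10.9, 11.2, 8.77 and 6.59 to 6.32, 9.23, 6.37 and 5.10 CPM. Tnc, at 746, 426, 322 and 424 CPM in IFNg, and Ccn2, at 0.302, 1.06, 0.244 and 0.307 CPM, were not called. The remaining calls were of low-count collagens. Col26a1, a collagen with a short helix, went from 2.50, 1.19, 1.65 and 1.17 to 0.544, 0.196, 0.522 and 0.268 CPM (-2.09 ± 0.22, edgeR adjusted p = 5.32e-05) and was the largest fall of any member. Col28a1, known from basement membranes around Schwann cells, went from 1.39, 0.409, 0.476 and 0.522 to 0.574, 0.196, 0.174 and 0.0384 (-1.52 ± 0.33, adjusted p = 0.00562). With length correction its mean was 0.173 FPKM in Ctr (range 0.102 to 0.344) and 0.160 in IFNg (range 0.00956 to 0.393). The fall of Col28a1 was thus seen in counts and hardly in FPKM. Col10a1, the collagen of hypertrophic cartilage, went from 0.272, 1.86, 0.372 and 0.293 to 0.332, 0.504, 0.174 and 0.153 (-1.10 ± 0.36, adjusted p = 0.0392), and the adjusted p was 0.446 without replicate 2, which holds its 1 high Ctr value, and 0.0790 and 0.0798 without replicates 3 and 4. The 3 collagen VI chains tested, Col18a1, Col7a1, Col8a1, Col23a1 and Col25a1 were not called.

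**Figure D2:**
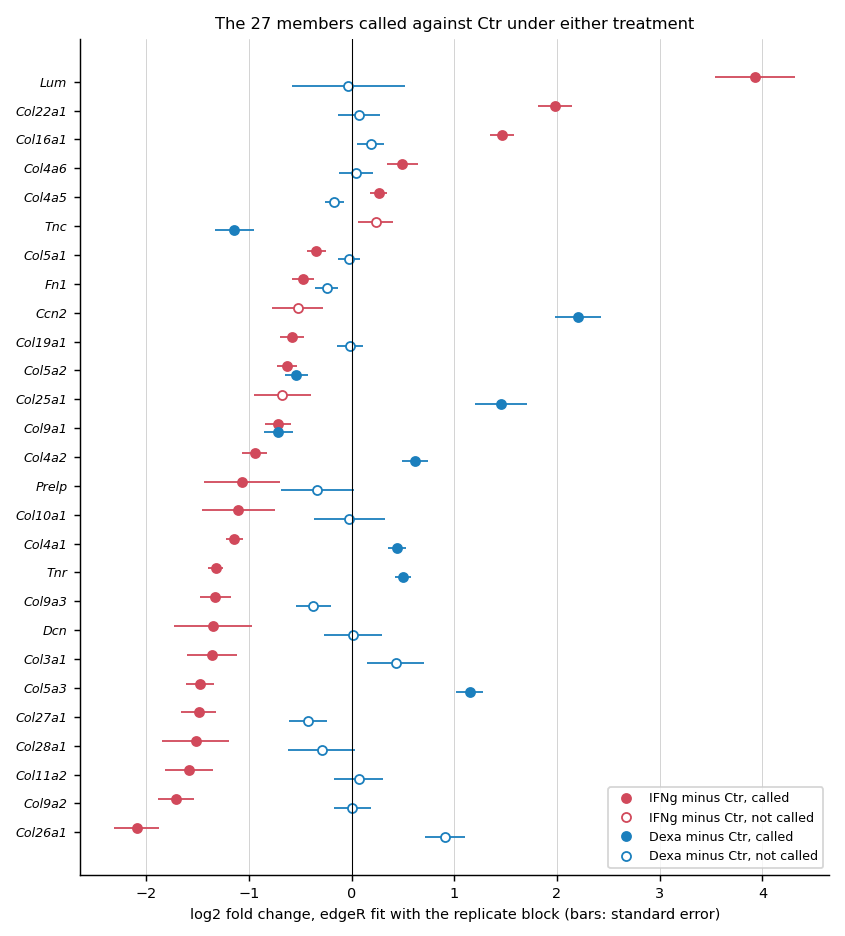
Log2 fold changes with standard errors of the 27 members called against Ctr in IFNg (red) or Dexa (blue), from the edgeR fit with the replicate block, filled where called. Lum, Col22a1 and Col16a1 lead the rises in IFNg, Ccn2 leads in Dexa, and Col4a1, Col4a2, Col5a3 and Tnr are called on opposite sides of 0 under the 2 treatments.

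The second comparison asks what the glucocorticoid changed. Dexamethasone moved few genes, 1.57% of all genes tested, but 9 of the 44 members tested (20.5%) were among them, 6 higher against 1.31% of all genes tested and 3 lower against 0.262%. The median log2 fold change of the members was 0.07, against -0.00 over all genes tested. Of the 9 called, 3 were among the 4 matrix glycoproteins that the rule adds by name. As the members were chosen with earlier results of these data known, these shares too are a description only. The calls rested on the pairing by litter and on replicate 2: without the block edgeR called 0 of the 44 (5 at an unadjusted p under 0.05, and DESeq2 without it called 2, Ccn2 and Col25a1), and without replicate 2 it called 0 of 38 (12 at an unadjusted p under 0.05), where 2 Dexa libraries remained. None of the 9 changed direction under any alternative computed.

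Ccn2, which encodes connective tissue growth factor, a matricellular protein, rose most. It was at 0.652, 1.10, 0.310 and 0.652 CPM in Ctr and 2.96, 5.36, 1.27 and 2.62 in Dexa, so that each Dexa library, replicate 3 included, lay above every Ctr library. The log2 difference was 2.20 ± 0.22 (edgeR adjusted p = 9.50e-04, and 0.0508 without replicate 2), a 4.60-fold rise. Tnc fell, from 405, 525, 263 and 427 CPM in Ctr to 181, 221 and 208 in Dexa replicates 1, 2 and 4, and the groups did not overlap. Its log2 difference was -1.14 ± 0.19 (edgeR adjusted p = 0.0160, 0.178 without replicate 2 and 0.0601 without replicate 4). The other tenascin, Tnr, rose, from 161, 530.3, 1097 and 1072 to 271, 705, 1264 and 1359 CPM, with Dexa the higher in each of the 4 litters. The log2 difference was 0.50 ± 0.08 (edgeR adjusted p = 0.0116, 0.0592 without replicate 1 and 0.220 without replicate 2).

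Among the collagens, Col5a3 rose in Dexa from 26.7, 16.2, 8.48 and 9.94 to 65.5, 32.3 and 19.8 CPM in replicates 1, 2 and 4, by 1.15 ± 0.13 on the log2 scale (edgeR adjusted p = 0.00215, and 0.104 without replicate 2). Col25a1, a transmembrane collagen of neurons, was at 0.706, 0.650, 0.434 and 0.424 CPM in Ctr and 1.71, 2.27 and 0.838 in those Dexa replicates and differed by 1.46 ± 0.26 (edgeR adjusted p = 0.0217, 0.107 without replicate 1 and 0.372 without replicate 2). The Dexa values of Col25a1 were all above the Ctr values. The 6 neuron markers summed to 5.89 to 9.16 FPKM in Ctr, 8.30 to 12.1 in Dexa and 6.05 to 9.49 in IFNg, with Snap25 called higher in Dexa (0.67 ± 0.11, edgeR adjusted p = 0.0146) and, in IFNg, Syt1 called higher and Snap25 and Gad1 lower. Their part in the rise of Col25a1 was not tested. The pair Col4a1 and Col4a2 rose, by 0.44 ± 0.09 (edgeR adjusted p = 0.0384) and 0.62 ± 0.13 (adjusted p = 0.0475). Their Dexa values in replicates 1, 2 and 4 were 35.2, 21.9 and 15.4 CPM for Col4a1 and 8.53, 8.13 and 5.13 for Col4a2, each above the Ctr library of its litter. Both calls were lost without any 1 replicate, with adjusted p from 0.0628 to 0.388 for Col4a1 and 0.0841 to 0.353 for Col4a2.

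Col9a1 and Col5a2 were the members called lower under both treatments. Col9a1 was at 8.63, 36.3, 128 and 109.9 CPM in the 4 Dexa libraries, each below the Ctr library of its litter, and differed by -0.72 ± 0.14 (edgeR adjusted p = 0.0376, 0.499 without replicate 2 and 0.193 and 0.0636 without replicates 1 and 4). Col5a2 was at 48.1, 12.1, 9.65 and 14.2 CPM, again lower in each litter, and differed by -0.54 ± 0.11 (edgeR adjusted p = 0.0435, and 0.0561 to 0.462 without any 1 replicate). The same Ctr libraries enter both comparisons, so these calls are not independent of each other. Neither gene was called between IFNg and Dexa (edgeR adjusted p = 0.998 for Col9a1 and 0.555 for Col5a2).

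**Figure D3:**
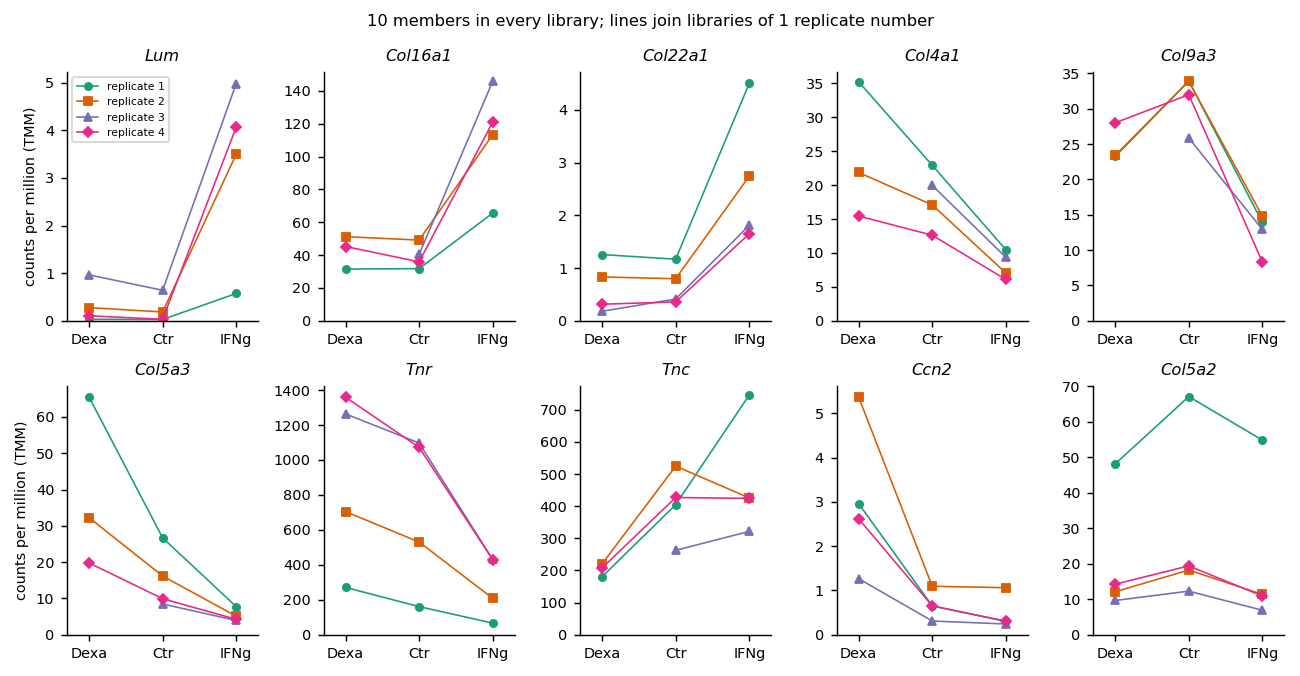
CPM on TMM library sizes of 10 members in every library, with lines joining the libraries of 1 replicate number (colours) and Dexa, Ctr and IFNg along the horizontal axis. Lum, Col16a1 and Col22a1 rise in IFNg in every litter, Ccn2 rises in Dexa in every litter, and Col5a2 keeps its high replicate 1 under all 3 conditions. Dexa replicate 3 is drawn only for members its table lists whole.

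Set against each other, IFNg and Dexa differed for 26 of the 44 members (edgeR, replicate block; 33.7% of all genes tested). Of these, 7 were higher in IFNg (17.2% of all genes tested) and 19 were lower (16.6% of all genes tested). The 4 members called in opposite directions against Ctr were among them. Col5a3 differed by -2.63 ± 0.15 (edgeR adjusted p = 4.76e-07), Tnr by -1.82 ± 0.08 (adjusted p = 7.46e-08), Col4a1 by -1.58 ± 0.09 (adjusted p = 6.44e-07) and Col4a2 by -1.56 ± 0.14 (adjusted p = 1.48e-05). Ccn2 differed by -2.73 ± 0.23, Col25a1 by -2.13 ± 0.28 and Tnc by 1.38 ± 0.19 (edgeR adjusted p = 1.32e-05, 2.54e-04 and 4.12e-04).

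A few members were called between the treatments although neither treatment was called against Ctr. Col1a2, a chain of type I collagen, was at 0.0604, 1.85, 2.82 and 0.422 CPM in IFNg and 0.129, 3.32 and 1.05 in Dexa replicates 1, 2 and 4 and was 1.997-fold lower in IFNg (edgeR adjusted p = 0.00663, and 0.942 without the block). Its partner chain Col1a1 was at 0.0815, 0.316, 1.22 and 0.293 CPM in Ctr, 0.258, 0.630, 1.99 and 0.628 in Dexa and 0.121, 0.476, 0.731 and 0.153 in IFNg and differed by -1.17 ± 0.39 (edgeR adjusted p = 0.0424), a call lost without replicate 1, 3 or 4 (adjusted p = 0.0994, 0.0965 and 0.188). In CPM, replicate 1 was the lowest library of each group for both chains. Col20a1, a fibril-associated collagen, was at 1.63, 2.32, 4.32 and 2.97 CPM in Ctr, 1.80, 4.41 and 5.55 in Dexa and 1.15, 1.34, 3.97 and 2.34 in IFNg and differed by -1.17 ± 0.21 (edgeR adjusted p = 0.00169). Col8a1, a network collagen of vessels, was at 0.258, 2.12 and 0.576 CPM in Dexa and 0.121, 1.37, 0.313 and 0.0767 in IFNg and differed by -1.16 ± 0.36 (adjusted p = 0.0287), lost without replicate 1, 3 or 4 (adjusted p = 0.0712, 0.0558 and 0.101). Higher in IFNg than in Dexa were Col11a1 by 0.33 ± 0.09 and Col12a1, a fibril-associated collagen of tendon and bone, by 0.62 ± 0.18 (edgeR adjusted p = 0.0175 and 0.0250). These were lost without replicate 2 (adjusted p = 0.113 and 0.172), Col11a1 also without replicate 1 (0.0681) and Col12a1 without replicate 4 (0.158). Col12a1 was at 6.76, 8.78, 3.89 and 8.97 CPM in Ctr, 6.86, 4.68 and 6.49 in Dexa and 7.01, 8.84, 5.71 and 11.4 in IFNg.

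More members were called between litters than between treatments. In a joint test of the replicate numbers with the group held in the fit, 38 of the 44 members were called (edgeR, adjusted p under 0.05), beside 46.2% of all genes tested. The 6 not called were Col9a3, Col24a1, Col4a4, Col23a1, Col25a1 and Ogn. Tnr, Col11a1 and Col9a1 were low in replicate 1 and high in replicates 3 and 4, with geometric means of CPM + 0.1 over the complete libraries of 143, 427, 687 and 855 CPM for Tnr in replicates 1 to 4, 90.6, 261, 525 and 536 for Col11a1 and 11.2, 45.4, 178 and 115 for Col9a1. Col5a2 and Col4a5 were highest in replicate 1, at 56.2, 13.7, 9.31 and 14.5 and 27.1, 15.2, 6.85 and 11.6 CPM (edgeR adjusted p for the litters from 2.37e-07 for Tnr to 2.83e-06 for Col4a5). The OPC markers Pdgfra and Sox10 and the committed-precursor marker Gpr17 were lowest in replicate 1 of Ctr too, with 89.8, 356, 834 and 969 FPKM for Gpr17 in Ctr replicates 1 to 4, while the astrocyte list was highest in replicate 1 and lowest in replicate 3, with sums of 558 to 759, 452 to 668, 231 to 442 and 354 to 545 FPKM in replicates 1 to 4. Cspg4, Olig2, Ptprz1 and Lhfpl3 were also lowest in replicate 1 of Ctr, but Olig1 was not, at 504, 561, 499.7 and 476 FPKM. Of the astrocyte list, S100b was lowest in replicate 1 of Ctr, at 7.23, 24.6, 46.9 and 68.7 FPKM. Gfap was highest in replicate 2 of Ctr, at 0.494 FPKM. The part of OPCs or astrocytes in these differences was not tested.

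Type I, III and VI collagen and some proteoglycans had a further order across litters, noticed after their values were seen. Col3a1 stood at 0.164, 3.78, 4.19 and 0.640 CPM over replicates 1 to 4, Col1a2 at 0.188, 2.61, 3.33 and 0.693 and Bgn at 0.148, 1.22, 2.20 and 0.595 (edgeR adjusted p = 3.44e-06, 1.83e-06 and 4.56e-05), each lowest in replicate 1 and higher in replicates 2 and 3 than in 4. Col1a1, Dcn and Lum and the tested collagen VI chains Col6a1, Col6a2 and Col6a3 were likewise lowest in replicate 1 and highest in replicate 2 or 3. Other proteoglycans did not share this order: Prelp, at 0.411, 0.493, 0.157 and 0.214 CPM, was lowest in replicate 3, and Ogn, not called between litters, stood at 0.626, 0.460, 0.290 and 0.380. Col6a3, a collagen VI chain, spanned 0.0227 to 1.39 FPKM among the 4 Ctr libraries. The whole fibroblast list summed to 0.574 to 1.03 FPKM in replicate 1, 0.617 to 0.866 in replicate 2, 0.565 to 0.784 in replicate 3 and 0.274 to 0.387 in replicate 4, so that list as a whole did not follow the order of Col3a1. Its members differed among themselves in Ctr. Aldh1a2, from no more than 26 reads, followed that order, at 0, 0.108, 0.261 and 0.0635 FPKM in replicates 1 to 4. Foxc1, at 0.125, 0.0231, 0.0257 and 0.0347 FPKM, did not. The pericyte and smooth muscle list ran the other way, with 10.4 to 15.8 FPKM in replicate 1, 5.96 to 10.0 in replicate 2, 3.81 to 10.7 in replicate 3 and 6.09 to 11.4 in replicate 4. Its defining marker Pdgfrb, however, had the order of Col3a1, at 0.0418, 0.250, 0.271 and 0.0816 FPKM in Ctr replicates 1 to 4. The part of other cell types in these differences was not tested.

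**Figure D4:**
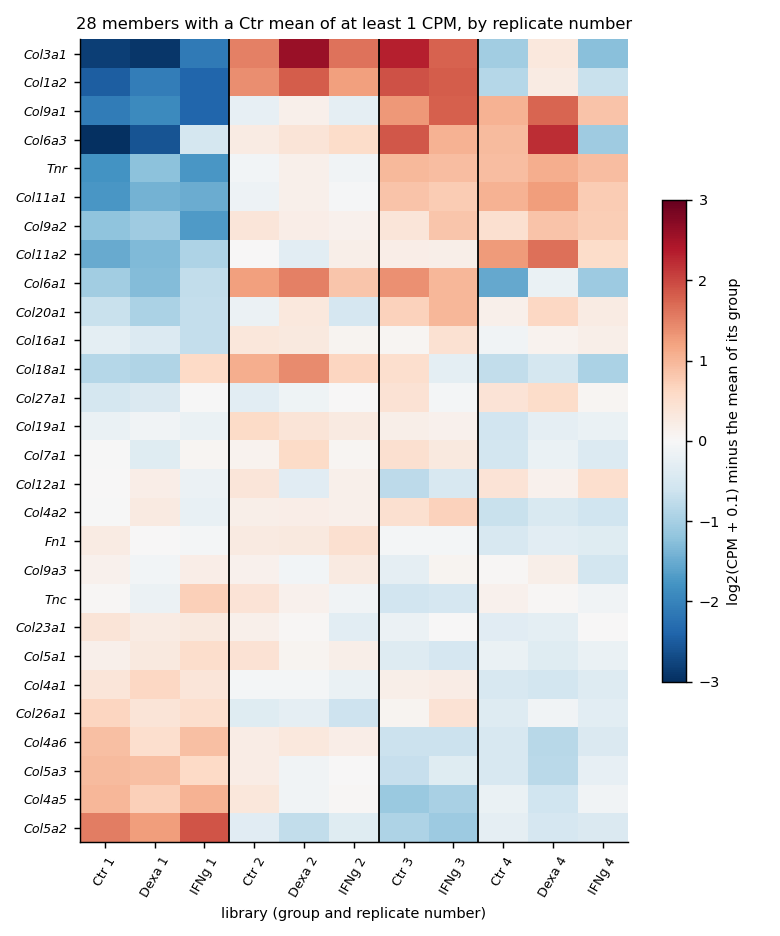
Heat map of 28 members with a Ctr mean of at least 1 CPM in the 11 complete libraries, ordered by replicate number, where colour is log2(CPM + 0.1) minus the mean of the library's own group and is limited to 3 either way. Columns of 1 replicate number look alike whatever the treatment, with Col3a1, Col1a2, Col9a1, Tnr and Col11a1 low and Col5a2, Col4a5, Col5a3 and Col4a6 high in replicate 1.

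Genes that act on the members were followed through lists of pathway genes, which were also chosen with earlier results of these data known. Of 32 tested genes for collagen folding, modification and crosslinking, 3 rose, 8 fell and 21 were not called in IFNg, a share of calls close to the 31.3% of all genes tested. Adamts3, a procollagen N-proteinase, rose from 10.2 ± 3.76 to 124 ± 22.4 CPM (mean ± SD, n = 4), by 3.64 ± 0.21 on the log2 scale (edgeR adjusted p = 6.68e-07). Pcolce, an enhancer of procollagen C-proteinase, was higher by 1.42 ± 0.15 and Tll2 differed by -1.31 ± 0.29 (edgeR adjusted p = 6.40e-05 and 0.00617). Tll2 was near the floor, with means of 0.618 CPM in Ctr and 0.245 in IFNg, and was not called without the block (edgeR adjusted p = 0.135). In Dexa, where 1.57% of all genes tested were called, the 1 gene of this list called was Fkbp14, a prolyl isomerase. It rose by 0.75 ± 0.11 (edgeR adjusted p = 0.00774 with the block and 0.197 without).

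Among 24 tested receptors and binding partners of collagen and matrix, 8 rose and 5 fell in IFNg, where 16.0% of all genes tested rose and 15.3% fell. Itgb3, an integrin beta chain that pairs with alpha V, rose from 0.943 ± 0.122 to 53.2 ± 11.2 CPM, by 5.81 ± 0.16 (edgeR adjusted p = 1.10e-09), and Ddr2, a receptor kinase for fibrillar collagen, from 27.5 ± 8.26 to 63.6 ± 18.9, by 1.21 ± 0.06 (adjusted p = 1.11e-07). Itga2, a chain of a collagen-binding integrin, differed by -0.96 ± 0.16 (edgeR adjusted p = 9.88e-04). In Dexa, where 1.57% of all genes tested were called, Sdc4, a cell-surface heparan sulphate proteoglycan, was the 1 receptor called. It rose by 1.31 ± 0.13 (edgeR adjusted p = 9.37e-04 with the block and 0.986 without).

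Of 18 tested genes for collagen and matrix turnover, 5 rose and 4 fell in IFNg, and these counts and those of the short lists that follow stand beside 31.3% of all genes tested. Adamts5, an aggrecanase, fell from 12.2 ± 5.07 to 2.68 ± 0.978 CPM, a log2 difference of -2.17 ± 0.18, Mrc2, an endocytic collagen receptor, fell with -1.24 ± 0.16 and Timp1, an inhibitor of metalloproteinases, rose by 1.41 ± 0.33 (edgeR adjusted p = 8.73e-06, 2.63e-04 and 0.00803). Timp1 was low, with means of 0.663 CPM in Ctr and 1.78 in IFNg, and was not called without the block (edgeR adjusted p = 0.0978). Other basement membrane genes were called in 12 of 15 cases, 4 higher and 8 lower, with the laminin alpha chains Lama3 and Lama2 higher by 2.21 ± 0.24 and 1.13 ± 0.21 and the beta chain Lamb3 lower (-1.12 ± 0.33) (edgeR adjusted p = 7.50e-05, 0.00245 and 0.0261). These chains were low, with Ctr and IFNg means of 0.358 and 1.75 CPM for Lama3, 1.15 and 2.56 for Lama2 and 0.514 and 0.236 for Lamb3. Without the block Lama2 and Lamb3 were not called (edgeR adjusted p = 0.0927 and 0.0697). Of 16 TGF-beta genes 1 rose and 3 fell, a share below that of all genes, Ltbp1 and Ltbp3, which anchor latent TGF-beta, with -0.92 ± 0.18 and -0.69 ± 0.13 and the repressor Skil with -0.61 ± 0.07 (edgeR adjusted p = 0.00346, 0.00249 and 5.91e-05). Among relatives of the proteoglycans, 1 of 6 rose, Podn with 1.38 ± 0.32, and 1 fell, Chadl with -1.10 ± 0.16 (edgeR adjusted p = 0.00883 and 5.15e-04), and of 2 tested relatives of Tnc and Ccn2, Ccn1 fell with -0.75 ± 0.15 (adjusted p = 0.00359). In Dexa edgeR with the block called 0 genes of these last 5 lists, where 4 turnover and 5 basement membrane genes had an unadjusted p under 0.05. It called 1.57% of all genes tested there, so few calls would be met in lists this short. Without the block edgeR called 4 folding genes, 3 turnover genes, 5 receptors and 1 gene each of the TGF-beta, basement membrane and proteoglycan lists in IFNg.

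Promoter windows of 42 members were at hand, 46 windows in all, of the 32851 in RefSeq for GRCm38.p6, each 300 bases long. The letters TGTTCT, part of the element that the glucocorticoid receptor binds, searched on both strands, occurred in Bgn, Col20a1 and Col9a1 and in 19.0% of all windows. No window was at hand for Lum, Col22a1, Ccn2 or Col9a3, and a match is a description of letters only. The window of Col9a1 (chr1:24177360-24177659, plus strand) is shown, with TGTTCT in capitals, because this member was called lower in Dexa.
Col9a1: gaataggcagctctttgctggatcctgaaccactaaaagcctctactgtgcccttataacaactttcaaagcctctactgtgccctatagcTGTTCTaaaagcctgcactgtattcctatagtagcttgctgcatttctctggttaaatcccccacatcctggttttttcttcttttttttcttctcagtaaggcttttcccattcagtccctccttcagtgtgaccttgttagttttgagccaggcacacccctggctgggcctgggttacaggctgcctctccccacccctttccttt

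Several members overlap a gene on the opposite strand in the annotation, Ccn2, Col22a1, Col10a1, Col9a3, Tnc, Tnr and Fn1 among them. The library kit keeps strand, but the strand setting of the quantification was not given in the sources used here, so reads of such partners may be divided differently from the strand they came from.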

How the data were processed

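RNA of cultured mouse OPCs (4 Ctr, 4 Dexa and 4 IFNg libraries) had been sequenced from ribosomal-depleted, stranded libraries. The authors quantified transcripts with Salmon 0.8.2 against GRCm38 (the processing notes also name STAR and DESeq2) and deposited, per transcript, an estimated count and a TPM value. The annotation version follows from the transcripts listed, all 141862 of which matched Ensembl 96 (GENCODE M21). Deposited tables of the authors' own DESeq2 comparisons (fold changes and p-values) were not used. The members and gene lists were chosen with earlier results of these data known.

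Estimated counts were summed per gene over all transcripts and rounded. A gene was tested where 4 or more of the 11 complete libraries reached 10 counts (17919 genes), with edgeR 4.0.16 (R 4.3.3) by the quasi-likelihood test with TMM scaling, all 3 groups in 1 fit and the replicate number as a block, with Benjamini-Hochberg adjustment over all genes and calls at an adjusted p under 0.05. Fold changes are log2 estimates ± SE. The SE was derived as the absolute estimate divided by the square root of the quasi-likelihood F statistic, and is approximate at low counts. The labels state that replicates came from different litters. As a check of the pairing, deviations from group means correlated at 0.414 to 0.745 between libraries of the same number in different groups and at -0.646 to 0.526 between libraries of different numbers. Same-numbered libraries were therefore treated as 1 litter, although no source used here says that they were split from the same cells, and p-values measure the spread of treatment differences between numbers.

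Deposited TPM is dominated by a few small RNAs, so levels are given as FPKM (summed counts per effective length over the TMM library size) in place of TPM, and values beside tests as CPM on the same library size. Dexa replicate 3 was scaled from the genes it lists whole, a step that in the other libraries ranged from 0.981 to 1.02 around its median. The procedure was tested on simulated counts. Named with all values are members called in any of the 3 comparisons and the 10 with the highest Ctr mean TPM. Of the promoter motif searches 1 is reported here. Pathway lists are given by counts and up to 3 called genes each. DESeq2 1.42.0 served as an alternative, as did other scaling, no count filter, protein-coding transcripts only, other sets of libraries and no block. Intervals of depth are not given for single libraries, and counts near 0 carry counting error.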

Additional observations from a re-analysis of the deposited data

Results flagged for a closer look

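Of 79 groups of 4 libraries checked over the members named with all values, 8 held 1 library far from the other 3 (Dixon's test at the 95% level), and chance alone sets apart about 1 group in 20. Col5a2 accounted for 3 of them, always with replicate 1 as the high library. It was at 67.1 CPM there in Ctr, against 12.3 to 19.4 in the other litters, 48.1 in Dexa, against 9.65 to 14.2, and 54.8 in IFNg, against 6.90 to 11.4.

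Replicate 1 of Ctr was also apart for Col9a2, lowest at 2.44 CPM against 7.43 to 8.15, and for Col28a1, highest at 1.39 CPM against 0.409 to 0.522. Replicate 1 of IFNg was highest for Col25a1, at 0.453 CPM against 0.307 to 0.313. Replicate 2 was highest for Col10a1 in Ctr, at 1.86 CPM against 0.272 to 0.372, and for Ccn2 in IFNg, at 1.06 CPM against 0.244 to 0.307.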

How the results depend on the processing

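The replicate block decided most calls. With no replicate block edgeR called 7 of the 44 members between IFNg and Ctr, 0 between Dexa and Ctr and 11 between IFNg and Dexa, against 24, 9 and 26 with it, and DESeq2 with no replicate block called 10, 2 and 13. With the pairing kept, DESeq2 called 20, 9 and 24. All 12 libraries over the genes that the incomplete table lists whole gave 10, 4 and 12 of 21 members tested, and 18 of 21 between litters, fewer members being tested there. With the Ctr and Dexa libraries alone, 15 of 41 members were called. Leaving out 1 replicate at a time gave 18 to 21 calls between IFNg and Ctr, 0 to 6 between Dexa and Ctr, 19 to 25 between IFNg and Dexa and 25 to 33 between litters, and the lowest Dexa count came without replicate 2. Other scaling, no count filter and protein-coding transcripts only kept each count within 1.5 times. No called fold change of a member changed direction under any of these settings. Depth limits Lum, Dcn, Prelp, Col10a1 and Col28a1, whose libraries hold few reads.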
